A study of Mus musculus with 8 samples.

Results

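Insulin-like growth factor (IGF) and insulin signalling was examined in the mammary epithelium of pregnant mice through 10 genes chosen by name: the ligand gene Igf1, the receptor genes Igf1r and Insr, the adaptor genes Irs1 and Irs2, and the binding protein genes Igfbp2, Igfbp3, Igfbp4, Igfbp5 and Igfbp6. All 10 were among the 55933 genes of the deposited table, and all 10 passed the filter on low values. At pregnancy day 14.5, RNA-seq libraries were made from the mammary epithelial cells of 4 control mice and 4 cKO mice, to ask what loss of the BMP receptor BMPR1a in the myoepithelial layer does to gene expression. The cKO mice carried the alleles K14-rtTA, teto-Cre and Bmpr1a fl/fl and received doxycycline, and in them a keratin 14 promoter drives the transactivator that switches on Cre, so that the deletion was aimed at myoepithelial cells. The controls were littermates, which the sample labels call wild type (WT), and the labels and methods used here give neither their exact alleles nor the start of doxycycline for these mice. The strain of all 8 mice is labelled C57BL/6. The cells were released by collagenase and hyaluronidase and were not sorted, so each library holds luminal and myoepithelial cells together with any stromal cells that came along, and fewer cells of a type cannot be told apart from less RNA per cell.

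IGF1 and insulin are related hormones that bind the receptor tyrosine kinases IGF1R and INSR, which pass the signal through the docking proteins IRS1 and IRS2 to PI3 kinase and AKT and through SHC and GRB2 to the RAS pathway. IGF binding proteins hold IGFs outside the cell, and they can both carry the ligand and keep it from its receptor. In the mammary gland, IGF1 comes largely from the stroma and the circulation and acts on the epithelium during ductal growth and alveolar development, and IGFBP5 is best known for its rise in the involuting gland after weaning.

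Among the 10 genes, the binding protein genes Igfbp3 and Igfbp5 stood apart between the groups, and the receptor and adaptor genes did not. Mean FPKM in the cKO libraries was 0.557 times the control mean for Igfbp3 and 0.607 times for Igfbp5, and for both genes every cKO library lay below every control library. Neither passed an adjusted p under 0.05 in limma over the 15143 genes tested, of which 0.892% did (135 genes, with 0.304% of the genes tested lower in cKO). Both had an unadjusted p under 0.05. That was 2 of 10 members, both lower in cKO, where 7.53% of all genes tested passed in that direction, and 8.85% passed in the other. Groups without overlap, lower in cKO, were seen for the same 2 of 10 members and for 4.60% of all genes tested. The median log2 fold change of the 10 members was -0.16, beside 0.00072 over all genes tested, and 6 members had a lower and 4 a higher mean log2 value in cKO, where the sign for Igf1r, near 0, turned with TPM or library totals. Log2 fold changes are cKO minus control on the scale log2(FPKM + 1), which makes folds look smaller where FPKM is low, and FPKM counts the fragments of a gene relative to its length and to the depth of the library.

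**Figure D1:**
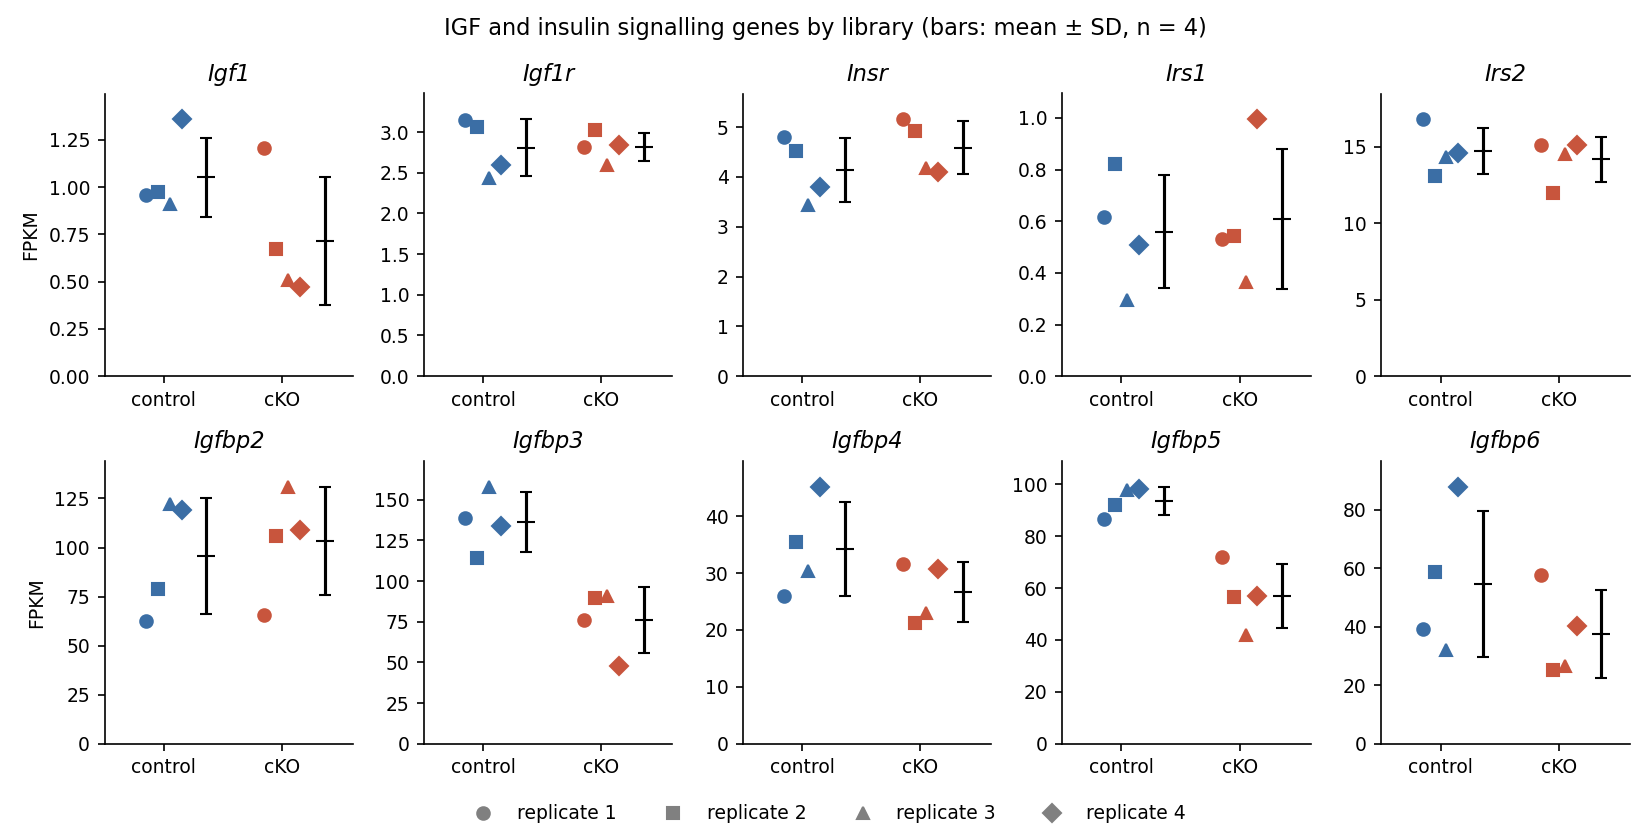
FPKM of the 10 genes (y axes, each from 0) in the 4 control (blue) and 4 cKO (red) libraries, with 1 symbol per replicate number and the group mean ± SD at the side. The cKO points lie below every control point for Igfbp3 and Igfbp5 and mix with the control points for the other 8 genes.

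The promoter sequences of the 2 binding protein genes whose groups did not overlap are shown together with that of Igfbp2, the neighbour of Igfbp5, whose groups overlapped. Each line gives the 250 bases before the transcription start of RefSeq on GRCm38.p6, from 5′ to 3′ on the strand of the gene. Capitals mark AGAC or its other strand GTCT, the core of the SMAD-binding element, and CAGGTG or its other strand CACCTG, an E-box bound by Slug (Snai2) in other promoters. Another motif, GGCGCC, a GC-rich element bound by the SMADs of BMP signalling, was searched and is in none of the 3 sequences.
Igfbp3, chr11:7213924-7214173, minus strand: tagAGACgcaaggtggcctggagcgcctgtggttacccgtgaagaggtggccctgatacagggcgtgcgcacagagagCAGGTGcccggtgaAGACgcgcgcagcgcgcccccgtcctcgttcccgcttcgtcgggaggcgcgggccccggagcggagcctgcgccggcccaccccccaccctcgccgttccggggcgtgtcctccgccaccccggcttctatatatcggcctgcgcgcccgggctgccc
Igfbp5, chr1:72874866-72875115, minus strand: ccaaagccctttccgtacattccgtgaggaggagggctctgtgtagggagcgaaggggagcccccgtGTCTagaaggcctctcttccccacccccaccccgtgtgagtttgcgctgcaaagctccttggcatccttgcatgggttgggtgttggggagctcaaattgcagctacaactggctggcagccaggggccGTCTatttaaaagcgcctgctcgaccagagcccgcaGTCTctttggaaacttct
Igfbp2, chr1:72824230-72824479, plus strand: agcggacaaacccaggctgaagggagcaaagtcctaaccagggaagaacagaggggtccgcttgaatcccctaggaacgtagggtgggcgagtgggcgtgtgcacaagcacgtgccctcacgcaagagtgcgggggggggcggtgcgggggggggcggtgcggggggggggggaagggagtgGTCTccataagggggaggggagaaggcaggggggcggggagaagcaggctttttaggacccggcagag
The AGAC core occurs 2 times in the Igfbp3 window, 3 times in that of Igfbp5 and 1 time in that of Igfbp2, and it is in 82.9% of the 32851 promoter windows of this length. The E-box occurs 1 time, in the Igfbp3 window, and is in 17.2% of all windows, while GGCGCC is in 9.59%. The motifs do not overlap one another in these windows, both strands were searched, and such matches describe the sequence without showing that a factor binds. Of the 10 members, 9 had a promoter in the RefSeq table, and 8 of these held the AGAC core. Irs1 and Igfbp6, whose groups overlapped, held it 3 and 2 times, so its count did not separate the members by their difference. GGCGCC was in the windows of 2 members, Igf1 and Irs2. The 3 windows are rich in G and C, at 73.2% for Igfbp3, 58.8% for Igfbp5 and 67.2% for Igfbp2, beside a median of 52.4% over all windows.

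Igfbp3 (ENSMUSG00000020427) encodes the main IGF carrier of the circulation and lies on chromosome 11 of GRCm38 from 7206086 to 7213923 on the minus strand. Across control replicates 1 to 4 it reached 139, 114, 158 and 134 FPKM, against 76.1, 89.3, 91.0 and 47.5 FPKM across cKO replicates 1 to 4 (2762 to 8302 reads). The highest cKO library, replicate 3, was thus below the lowest control library, replicate 2, and cKO replicate 4 was the lowest of all. The means were 136 ± 18.3 and 75.9 ± 20.1 (SD, n = 4 each), and the exact permutation test gave p = 0.0286 (two-sided), the smallest p that 4 libraries against 4 allow. Limma gave a log2 fold change of -0.87 (standard error 0.20, 95% interval -1.32 to -0.42), unadjusted p = 0.00189 and adjusted p = 0.0819. For replicates 1 and 2 alone the log2 difference was -0.61, and for replicates 3 and 4 alone it was -1.13. No label names this split, which was read from the values, and these differences of 2 libraries against 2 were not tested. With limma-voom on the reads recovered from the FPKM, a fit meant for counts, the adjusted p was 0.0442, one of 2 among 20 alternative settings under 0.05, and it reached 0.191 without a filter on low values.

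Igfbp5 (ENSMUSG00000026185) encodes the most conserved of the IGF binding proteins and lies on chromosome 1 from 72857932 to 72874884 on the minus strand. Across control replicates 1 to 4 its FPKM was 86.7, 92.1, 97.9 and 98.0, against 71.9, 56.7, 41.9 and 57.1 across cKO replicates 1 to 4 (3992 to 11049 reads). The control values lay close together, and the cKO values spread more widely below them, with replicate 1 nearest to the control group. The means were 93.7 ± 5.38 and 56.9 ± 12.3 (SD, n = 4 each; exact permutation test, two-sided, p = 0.0286). In limma the log2 fold change was -0.73 (standard error 0.14, 95% interval -1.06 to -0.41), unadjusted p = 0.000612 and adjusted p = 0.0568. Replicates 1 and 2 alone differed by -0.48 and replicates 3 and 4 alone by -0.99 on this scale, again without a test. Its adjusted p fell under 0.05 in 6 of 20 alternative settings. Among these were limma-voom on recovered reads (0.0239), the split of replicates as a block (0.0419) and the fit without cKO replicate 1 (0.0367). In the other 14 it did not, and it reached 0.135 without a filter on low values and 0.134 without control replicate 4.

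Igfbp2 (ENSMUSG00000039323), whose product prefers IGF2 over IGF1, lies beside Igfbp5 on chromosome 1, from 72824503 to 72852474 on the plus strand, with 5457 bases between the ends of the 2 genes. Control replicates 1 to 4 gave 62.7, 79.1, 122 and 119 FPKM, and cKO replicates 1 to 4 gave 65.7, 106, 131 and 109 FPKM. The groups overlapped throughout, and in both groups replicates 1 and 2 were below replicates 3 and 4. The means were 95.7 ± 29.4 and 103 ± 27.4 (SD, n = 4 each), and the log2 difference was 0.12 with a wide 95% interval from -0.48 to 0.71 (limma, adjusted p = 0.864). The sign of this difference turned when control replicate 1 or cKO replicate 3 was left out.

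Igfbp4 (ENSMUSG00000017493, chromosome 11 from 99041244 to 99054392), the gene of a binding protein that is cut by the protease PAPP-A, had FPKM of 26.0, 35.5, 30.3 and 45.2 across control replicates 1 to 4, against 31.6, 21.3, 22.9 and 30.8 across cKO replicates 1 to 4. The groups overlapped, with control replicate 4 the highest and cKO replicate 2 the lowest. The means were 34.3 ± 8.29 and 26.7 ± 5.33 (SD, n = 4 each), and the log2 fold change was -0.34 with a 95% interval of -0.76 to 0.08 (limma, adjusted p = 0.401). Igfbp6 (ENSMUSG00000023046, chromosome 15 from 102144362 to 102149511), whose product binds IGF2 far more tightly than IGF1, stood at 39.3, 58.6, 31.9 and 87.8 FPKM in control replicates 1 to 4, against 57.7, 25.2, 26.5 and 40.3 in cKO replicates 1 to 4. Here too the groups overlapped, with control replicate 4 the highest and cKO replicate 2 the lowest, and with means of 54.4 ± 24.9 and 37.4 ± 15.1 (SD, n = 4 each) and a log2 difference of -0.50 with a 95% interval of -1.29 to 0.28 (limma, adjusted p = 0.521). Without control replicate 4 the log2 difference was -0.24 for Igfbp6 and -0.20 for Igfbp4.

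**Figure D2:**
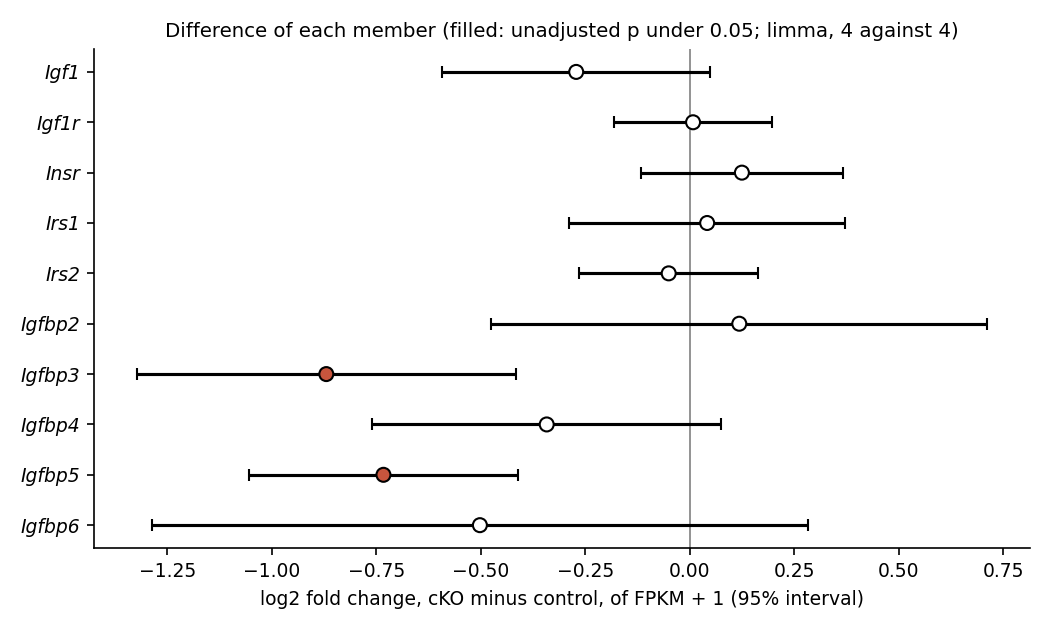
Log2 fold change of each gene (x axis, cKO minus control, on FPKM + 1) with its 95% interval from limma, 4 libraries against 4. Filled points have an unadjusted p under 0.05, namely Igfbp3 at -0.87 and Igfbp5 at -0.73, and the intervals of the other 8 genes span 0.

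Igfbp3 was the most abundant of the 5 binding protein genes per length in 4 of 4 control libraries, and in the cKO libraries Igfbp2 took that place in 3 of 4. The ratio of Igfbp3 to Igfbp2, which does not depend on the scaling between libraries, was 2.222, 1.441, 1.298 and 1.123 in control replicates 1 to 4, against 1.158, 0.839, 0.692 and 0.435 in the cKO replicates. Control replicate 4 and cKO replicate 1 therefore overlapped in this ratio. The summed FPKM of the 5 genes was 354 to 484 in control and 285 to 314 in cKO libraries, and the sum includes the 2 genes already described. Igfbp3 made up 27.6% to 39.4% of the sum in control and 16.7% to 29.9% in cKO libraries, and Igfbp2 made up 17.7% to 27.7% and 21.7% to 41.9%, so both shares overlapped between the groups. Igfbp4 held 6.89% to 10.8% of the sum over the 8 libraries.

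**Figure D3:**
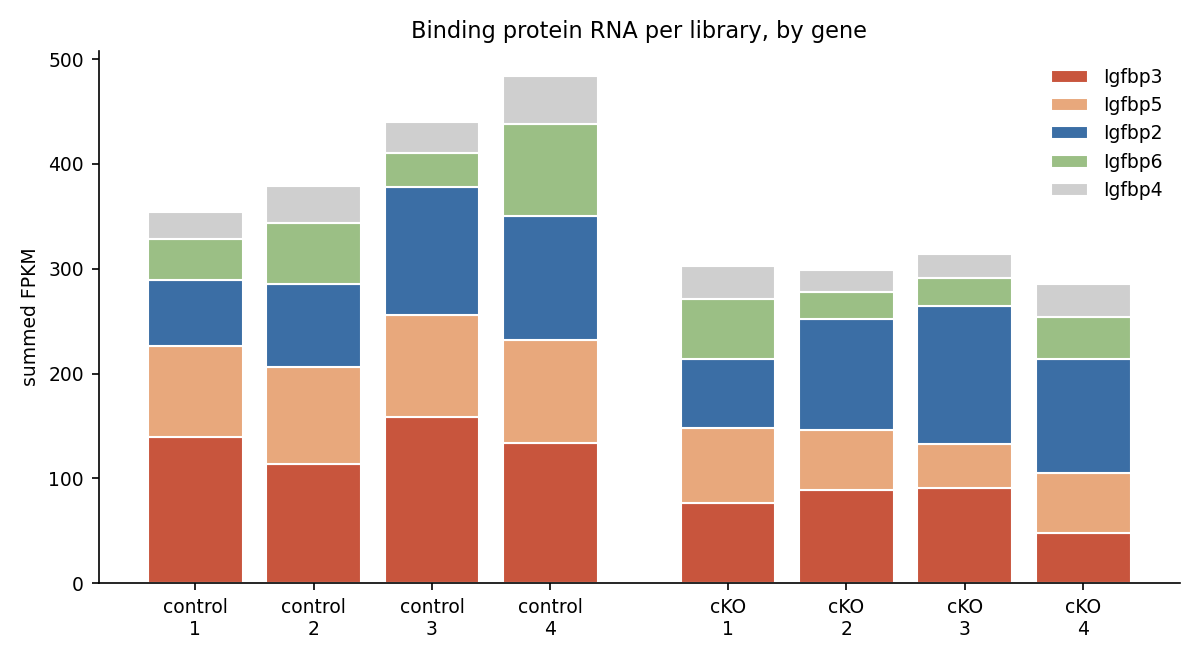
Summed FPKM of the 5 binding protein genes (y axis) in each library (x axis, group and replicate), stacked by gene. The control bars reach 354 to 484 and the cKO bars 285 to 314, with smaller Igfbp3 and Igfbp5 segments in cKO.

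Igf1 (ENSMUSG00000020053), the ligand gene, lies on chromosome 10 from 87858265 to 87937042 and was near the lower limit of the filter, with 80 to 253 reads per library. It stood at 0.961, 0.973, 0.910 and 1.36 FPKM in control replicates 1 to 4, against 1.21, 0.673, 0.509 and 0.473 FPKM in cKO replicates 1 to 4. All cKO libraries but replicate 1 were below every control library, and cKO replicate 1 was above 3 of the controls. The means were 1.05 ± 0.208 and 0.716 ± 0.340 (SD, n = 4 each; exact permutation test, two-sided, p = 0.143), with a log2 fold change of -0.27 and a 95% interval of -0.59 to 0.05 (limma, adjusted p = 0.384). A single library decided the overlap: without cKO replicate 1 the groups did not overlap, and limma gave -0.40 (unadjusted p = 0.00656, adjusted p = 0.151). Without control replicate 4, the highest library, it gave -0.20 (unadjusted p = 0.212, adjusted p = 0.599), and without cKO replicate 4 it gave -0.21 (unadjusted p = 0.207, adjusted p = 0.588). On recovered reads, without the pseudocount that flattens low FPKM, limma-voom gave -0.63 (unadjusted p = 0.0357, adjusted p = 0.255), and with the replicate block -0.57 (unadjusted p = 0.0680, adjusted p = 0.262).

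Insr (ENSMUSG00000005534, chromosome 8 from 3122061 to 3279617) encodes the insulin receptor, and its FPKM was 4.81, 4.52, 3.44 and 3.79 in control and 5.16, 4.92, 4.19 and 4.10 in cKO replicates 1 to 4. Replicates 1 and 2 were above replicates 3 and 4 in both groups, and within each of these sets both cKO libraries were above both controls. These differences were 0.09 for replicates 1 and 2 and 0.16 for replicates 3 and 4 on the log2 scale, each from 2 libraries against 2. Over all libraries the means were 4.14 ± 0.635 and 4.59 ± 0.528 (SD, n = 4 each), the log2 fold change was 0.12 and the 95% interval ran from -0.12 to 0.37 (limma, adjusted p = 0.615). In limma with these sets as blocks, the adjusted p was 0.243 (0.0537 before adjustment). No label names the sets, which were read from these same values, so this p does not rest on a known batch. Igf1r (ENSMUSG00000005533, chromosome 7 from 67952827 to 68233668) encodes the receptor of IGF1, and its values were 3.15, 3.06, 2.43 and 2.60 in control and 2.82, 3.02, 2.60 and 2.84 in cKO replicates 1 to 4. Every cKO value lay within the control range. The means were 2.81 ± 0.350 and 2.82 ± 0.175 (SD, n = 4 each), and limma gave a log2 fold change of 0.01 and a 95% interval of -0.18 to 0.20 (adjusted p = 0.975). Per length, Insr was above Igf1r in every library, with a ratio of 1.42 to 1.53 in control and 1.44 to 1.83 in cKO libraries.

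Of the IRS genes, Irs2 had the higher level. Irs2 (ENSMUSG00000038894, chromosome 8 from 10984681 to 11008458) was 16.8, 13.1, 14.3 and 14.6 FPKM in control and 15.1, 12.0, 14.5 and 15.1 FPKM in cKO replicates 1 to 4. The groups overlapped, with means of 14.7 ± 1.5 and 14.2 ± 1.45 (SD, n = 4 each) and a log2 difference of -0.05 with a 95% interval of -0.26 to 0.16 (limma, adjusted p = 0.833). Irs1 (ENSMUSG00000055980, chromosome 1 from 82233101 to 82291416) was low, at 0.618, 0.821, 0.294 and 0.507 FPKM in control and 0.533, 0.544, 0.365 and 0.995 FPKM in cKO replicates 1 to 4, with 45 to 169 reads. The control and cKO values of Irs1 were mixed, with cKO replicate 4 the highest and control replicate 3 the lowest, and the log2 fold change was 0.04 with a 95% interval of -0.29 to 0.37 (limma, adjusted p = 0.919). Per length, Irs2 was 16.0 to 48.8 times as abundant as Irs1 in control and 15.1 to 39.8 times in cKO libraries. An exon of Irs1 overlaps Gm9747 on the other strand, for which no library had a read (0 reads), and an exon of Irs2 overlaps 9530052E02Rik, also on the other strand, with 1 to 6 reads. The exons of the other 8 members overlap no other gene in GENCODE M21.

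Over the 8 libraries the order of the mean levels was Igfbp3, Igfbp2, Igfbp5, Igfbp6, Igfbp4, Irs2, Insr, Igf1r, Igf1 and Irs1, from 106 to 0.585 FPKM. The ranges of Igfbp4, Irs2, Insr, Igf1r and Igf1 did not touch those of their neighbours in this stretch of the order. Igfbp3 was above Igfbp2 in 5 of 8 libraries and Igfbp2 above Igfbp5 in 5 of 8, so the first 3 places do not hold across libraries. Igf1 was above Irs1 in 7 of 8.

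The 8 members whose groups overlapped were also set beside summed marker genes of other cell types in the same libraries, over 9 marker lists whose own sums overlapped between the groups. These 72 relations were chosen after the values had been seen, and their p-values come from exact permutations of the 8 libraries with Benjamini-Hochberg adjustment over the 72. Igfbp6 followed the summed FPKM of 7 fibroblast genes (Col1a1, Col1a2, Col3a1, Dcn, Lum, Dpt and Pdgfra), with Pearson's r = 0.94 (permutation p = 0.000893, adjusted p = 0.0563) and Spearman's rho = 0.98 (permutation p = 0.000397, adjusted p = 0.0286) on the log2 scale. The fibroblast sum was 475.8, 821.7, 470.1 and 990.8 in control and 764.8, 454.9, 316.2 and 547.9 in cKO replicates 1 to 4, so control replicates 4 and 2 and cKO replicate 1 were highest for both the markers and Igfbp6. Without the 2 libraries farthest from the median of the fibroblast sum, control replicate 4 and cKO replicate 3, r was 0.92. For Igfbp4 and the same sum r was 0.88 (permutation p = 0.00494, adjusted p = 0.0888) and rho 0.95 (permutation p = 0.00114, adjusted p = 0.0411), with r = 0.76 without those 2 libraries. Igf1 gave r = 0.74 (permutation p = 0.0388, adjusted p = 0.280) and rho = 0.74 (permutation p = 0.0458, adjusted p = 0.367), and r = 0.44 without the 2 libraries, so this relation rests on them. With 4 pericyte genes, Igf1 gave r = 0.78 (permutation p = 0.0218, adjusted p = 0.224) and rho = 0.83 (permutation p = 0.0154, adjusted p = 0.184), and r = 0.87 without the 2 libraries farthest from the median of that sum, control replicate 2 and cKO replicate 3. With the same pericyte sum Igfbp6 gave r = 0.81 (permutation p = 0.0160, adjusted p = 0.192), rho = 0.83 (permutation p = 0.0154, adjusted p = 0.184) and r = 0.85 without those 2 libraries. Igfbp4 gave r = 0.71 (permutation p = 0.0455, adjusted p = 0.298), rho = 0.81 (permutation p = 0.0218, adjusted p = 0.196) and r = 0.66 without them. Taken as deviations from the mean of each set of replicates, 1 and 2 or 3 and 4, the r with the fibroblast sum for Igfbp6, Igfbp4 and Igf1 was 0.95, 0.97 and 0.73, and that with the pericyte sum was 0.90, 0.98 and 0.75, so neither list stood alone for these genes. The part of fibroblast or pericyte RNA in the lower cKO means of these 3 genes was not tested.

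Igfbp2 and Insr followed the summed FPKM of 9 myoepithelial genes (Krt14, Krt5, Krt17, Acta2, Myh11, Cnn1, Mylk, Trp63 and Oxtr) across the libraries, in opposite directions. Igfbp2 had r = 0.89 with this sum (permutation p = 0.00238, adjusted p = 0.0571) and rho = 0.88 (permutation p = 0.00724, adjusted p = 0.130), and Insr had r = -0.93 (permutation p = 0.00156, adjusted p = 0.0563) and rho = -0.88 (permutation p = 0.00724, adjusted p = 0.130). The sum was 1983.5, 2078.5, 2663.7 and 2701.5 in control and 1807.8, 2109.1, 2503.7 and 2448.7 in cKO replicates 1 to 4, so it divided replicates 1 and 2 from replicates 3 and 4 in both groups, as Igfbp2 and Insr did. Without cKO replicate 1 and control replicate 4, the 2 farthest from the median of the sum, r was 0.86 for Igfbp2 and -0.91 for Insr. As deviations from the set means the r was 0.60 for Igfbp2 and -0.69 for Insr, and a set of 4 libraries is too small for an r of its own. Insr also gave r = -0.81 with the sum of hormone-sensing luminal genes (permutation p = 0.0124, adjusted p = 0.179) with rho = -0.60 (permutation p = 0.132, adjusted p = 0.560), r = -0.41 without the 2 libraries farthest from that median, control replicate 3 and cKO replicate 1, and r = -0.85 as deviations from the set means. With the luminal sum it gave r = -0.79 (permutation p = 0.0261, adjusted p = 0.235) and rho = -0.81 (permutation p = 0.0218, adjusted p = 0.196), r = -0.59 without cKO replicates 1 and 2, and r = 0.14 as deviations from the set means. Igf1r gave r = -0.76 with the myoepithelial sum (permutation p = 0.0366, adjusted p = 0.280) and rho = -0.69 (permutation p = 0.0694, adjusted p = 0.454). Its r was -0.96 without cKO replicate 1 and control replicate 4, and 0.01 as deviations from the set means. None of these p-values for Igfbp2, Insr and Igf1r passed adjustment, and the set and the marker sum cannot be told apart here.

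**Figure D4:**
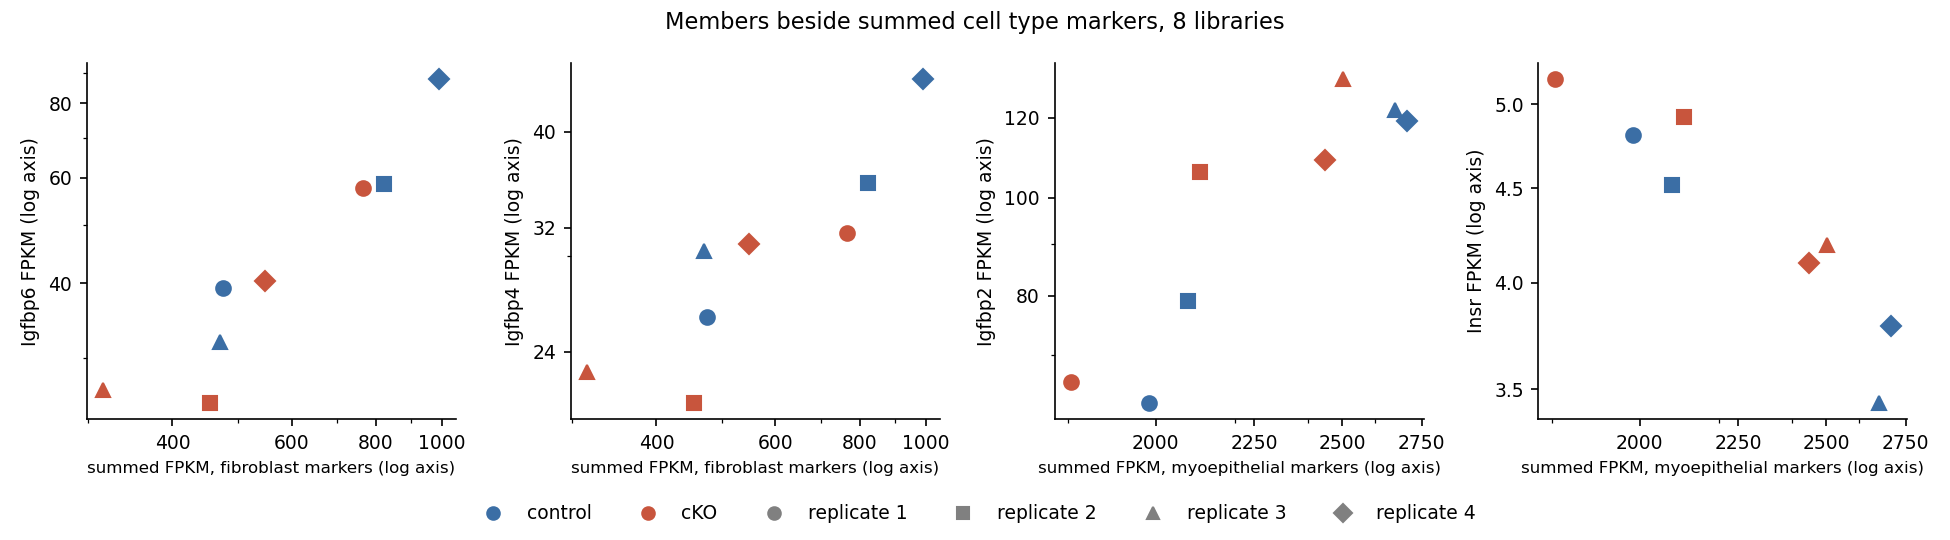
FPKM of Igfbp6, Igfbp4, Igfbp2 and Insr (y axes, log) against the summed FPKM of fibroblast or myoepithelial marker genes (x axes, log) in 4 control (blue) and 4 cKO (red) libraries, with 1 symbol per replicate number. Igfbp6 and Igfbp4 are highest in control replicate 4, which has the highest fibroblast sum, and Insr runs from high to low as the myoepithelial sum goes from 1807.8 to 2701.5.

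For Igfbp3 and Igfbp5, whose groups fall into separate clusters, no such relation was computed. Instead, the 3 genes with the most similar profile over the 8 libraries were found for each among 6754 protein-coding genes with a mean of at least 5 FPKM, by the root mean square difference of the centred log2(FPKM + 1). Nearest to Igfbp3 were Tspan8 (difference 0.15), Emid1 (0.20) and Krt16 (0.20), where the profile of Igfbp3 itself has a root mean square of 0.52. Nearest to Igfbp5 were Fbln2, Procr and Cpe (0.15 each), where Igfbp5 itself has 0.42. Procr, a surface receptor known as a marker of mammary stem cells, was 177, 191, 194 and 209 FPKM in control and 132, 110, 109 and 104 FPKM in cKO replicates 1 to 4, so that like Igfbp5 it had its highest cKO value in replicate 1. Tspan8, a tetraspanin, shared with Igfbp3 the lowest value in cKO replicate 4, at 4.14 FPKM. Such shared features follow from the choice of genes by profile and are no separate observation.

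Other markers of the tissue were read once over all libraries. Summed milk genes were 2722.3 to 3939.3 FPKM in control and 6270.3 to 10867.7 in cKO libraries, the only one of 10 marker sums without overlap. The luminal sum was 4928.1 to 6197.9 and 4800.6 to 6252.2, so epithelial markers were abundant in every library. Of the 9 myoepithelial genes, 4 had lower and 5 higher means in cKO, and 2 were lower and 1 higher at an unadjusted p under 0.05 in limma. These were Krt14, a basal keratin, at -0.39, Trp63, the gene of the basal transcription factor p63, at -0.42, and Oxtr, the oxytocin receptor gene, at 0.85 on the log2 scale. The groups did not overlap for Trp63, lower in cKO, or for Oxtr, higher in cKO, and the change of Oxtr was the larger in size (limma, adjusted p = 0.181 for Trp63 and 0.0644 for Oxtr). All 7 fibroblast, 6 endothelial, 6 macrophage and 3 tested pericyte genes had lower means in cKO, with 0, 2, 3 and 0 of them at an unadjusted p under 0.05 in limma, where 7.53% of all genes tested were lower and 8.85% higher at that p. Their sums were 110.9 to 129.2 and 85.2 to 116.4 for endothelial, 128.8 to 173.9 and 86.9 to 133.7 for macrophage and 44.8 to 61.4 and 35.1 to 54.4 for pericyte genes (control, then cKO). Of the lymphocyte genes 3 of 4 tested and of the adipocyte genes 3 of 4 tested passed that p, lower and higher in cKO respectively, and the adipocyte gene Cidec, of a lipid droplet protein, also passed adjustment (0.86 on the log2 scale, limma, adjusted p = 0.0377). Lymphocyte genes summed to 2.6 to 25.0 and 1.4 to 2.6, hormone-sensing luminal genes to 26.1 to 39.9 and 21.7 to 27.7, and adipocyte genes to 78.7 to 121.8 and 101.6 to 137.1, with Plin1 and Lep below 0.5 FPKM everywhere. The targeted gene Bmpr1a gave 10.1 ± 1.28 FPKM in control libraries and 11.2 ± 1.01 FPKM in the cKO (SD, n = 4 each; exact permutation test, two-sided, p = 0.257), so its level does not tell the groups apart, and the directions given follow the labels. Among the milk genes, Wap and Csn2 were higher in every cKO library, by 2.25 and 1.02 on the log2 scale (limma, adjusted p of 0.0340 and 0.0461). Whether cell make-up has a part in the lower Igfbp3 and Igfbp5 was not tested.

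Of 64 further genes of the pathway, 54 had enough RNA to be tested. None had an adjusted p under 0.05 in limma, while 5 were higher and 5 lower in cKO at an unadjusted p under 0.05, which is 10 of 54 beside 16.4% of all genes tested. Limma-voom on recovered reads gave 2 with an adjusted p under 0.05. Their median log2 fold change was 0.0004. Groups without overlap were seen for 4 genes higher in cKO (6.10% of all genes tested) and 3 lower (4.60%).

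The other ligand genes were almost silent. Igf2, the fetal growth factor, had 2 to 12 reads per library and at most 0.121 FPKM, and Ins1 and Ins2, the insulin genes, had 0 reads in all 8 libraries, which allows up to 0.178 and 0.144 FPKM at 3 reads in a library. Igfbp1, the neighbour of Igfbp3, had 2 reads in 1 library and 0 in the others. Igf2r, which carries IGF2 to the lysosome, averaged 12.0 ± 0.383 FPKM in control against 13.6 ± 1.37 in cKO (SD, n = 4 each), with every cKO library above every control library and a log2 fold change of 0.16 (limma, adjusted p = 0.329).

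Igfbp7, a binding protein of low affinity for IGFs that is abundant in vessels, was the most abundant gene of the family. Its FPKM was 234, 207, 233 and 226 in control and 187, 148, 132 and 171 in cKO replicates 1 to 4, lower in every cKO library, and differing by -0.51 on the log2 scale (standard error 0.11, limma, unadjusted p = 0.00142, adjusted p = 0.0775). As for Igfbp5, cKO replicate 1 was the highest and cKO replicate 3 the lowest of the cKO libraries. The endothelial sum given above was also lower in the cKO libraries on average, with overlap, and its part in Igfbp7 was not tested. Igfals, the gene of the acid-labile subunit that joins IGFBP3 or IGFBP5 and IGF in a ternary complex, was higher in every cKO library, at 20.1 ± 2.66 FPKM against 15.9 ± 1.52 in control (SD, n = 4 each; log2 fold change 0.32, limma, adjusted p = 0.176).

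**Figure D5:**
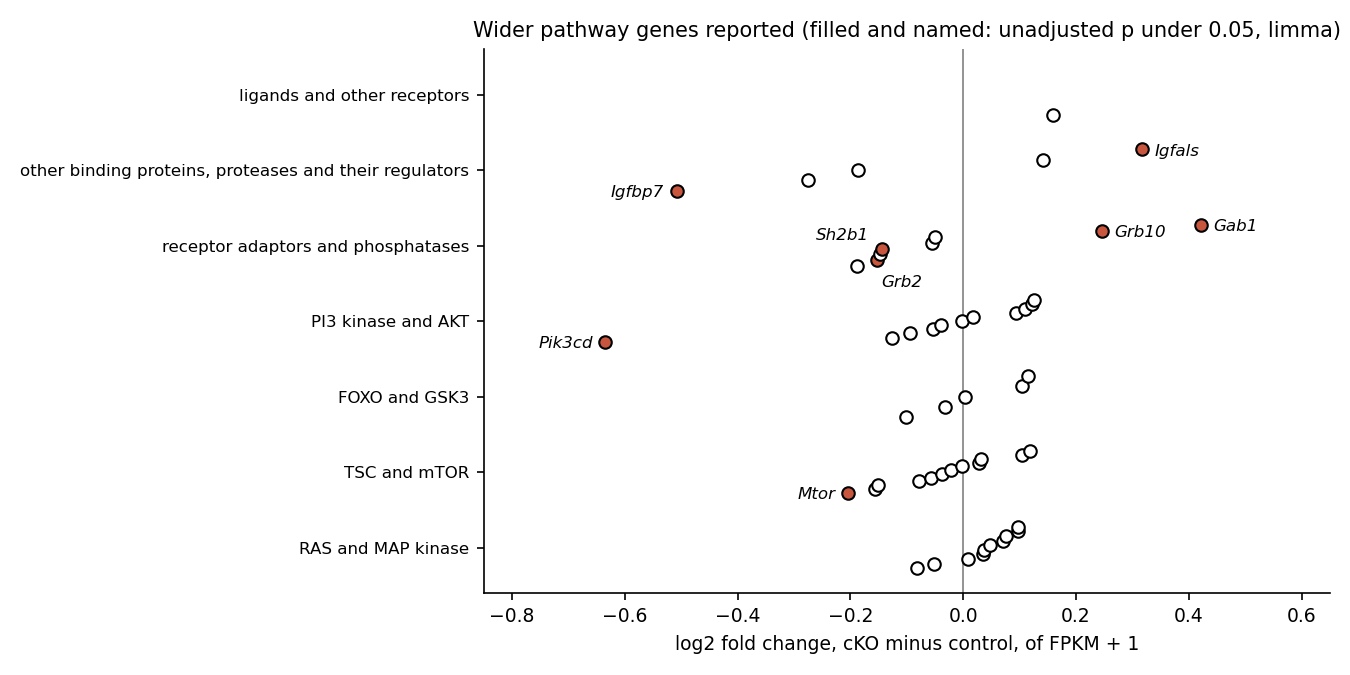
Log2 fold change (x axis, cKO minus control, on FPKM + 1) of the further pathway genes tested and reported here, by role (y axis). Filled, named points have an unadjusted p under 0.05, from Pik3cd at -0.63 to Gab1 at 0.42, and none has an adjusted p under 0.05.

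Inside the cell, 4 of the 8 adaptor and phosphatase genes tested had an unadjusted p under 0.05 (16.4% of all genes tested did), with Gab1 and Grb10 higher and Grb2 and Sh2b1 lower. Gab1, a docking protein for growth factor receptors, was 21.6, 18.9, 22.7 and 22.2 FPKM in control and 30.7, 27.8, 23.3 and 34.7 FPKM in cKO replicates 1 to 4, higher in every cKO library (log2 fold change 0.42, standard error 0.12, limma, adjusted p = 0.131). Grb2, which links receptors to RAS, was 39.3 ± 2.98 and 35.1 ± 0.865 FPKM (SD, n = 4 each; log2 fold change -0.15, limma, adjusted p = 0.292). Pik3cd, the catalytic subunit of PI3 kinase found mainly in white blood cells, was 4.06, 2.84, 3.43 and 2.17 FPKM in control and 1.94, 1.63, 1.36 and 1.57 FPKM in cKO replicates 1 to 4, a log2 fold change of -0.63 (standard error 0.14, limma, adjusted p = 0.0797). It was lower in every cKO library, and the summed lymphocyte genes were 2.6 to 25.0 FPKM in control and 1.4 to 2.6 in cKO libraries, and the part of these cells in the difference was not tested. The genes of FOXO and GSK3 gave 0 of 5 at the unadjusted p under 0.05, and those of TSC and mTOR 1 of 12, with Mtor lower. Akt1, Akt2 and Foxo1 lay between -0.04 and 0.00 on the log2 scale (limma, adjusted p of 0.843, 0.989 and 0.877).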

How the data were processed

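RNA of unsorted mammary epithelial cells from 4 control and 4 cKO mice was sequenced. Hisat2 mapping to GRCm38 by the authors gave the deposited FPKM per gene, and the submitters' processing notes also name featureCounts 1.5.0-p3, StringTie 1.3.3b and the build mm9. Of the gene identifiers, 55394 are in GENCODE M21 (GRCm38), 99.68% of them with identical coordinates, so positions are GRCm38. Deposited gene lengths times FPKM gave whole reads (tolerance 0.01 of a read) for 100% of the values above 0, and the FPKM already include median-of-ratios size factors. Each library held 16123108 to 19896988 reads on genes.

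Differences were tested with limma 3.58.1 (R 4.3.3) on log2(FPKM + 1), with empirical Bayes with trend and adjustment by Benjamini-Hochberg over the 15143 genes whose mean FPKM reached 0.5. FPKM are not counts, so limma-voom on recovered reads is an alternative only. Single values were compared by the exact permutation test (scipy 1.17.1). The fits were tested on simulated data, which had the same scatter setting for every gene and no sets of replicates. There limma recovered 29.1% of 1.5-fold, 88.8% of 2-fold and 98.4% of 4-fold changes at an adjusted p under 0.05. Where 2 rows shared a gene name, the row with the higher mean was used. The members and lists were chosen with earlier results of these data known. All 10 members were named. Of the further pathway genes, Igf2, Igf2r and Igfbp7 were named, as were those with an adjusted p under 0.05, or an unadjusted p under 0.05 and no overlap, and for each member with an unadjusted p under 0.05 the 3 genes most alike, except for results that are not reported here. Other genes named (Igfbp1, Ins1, Ins2, Grb10, Sh2b1, Mtor, Akt1, Akt2, Foxo1, Wap, Csn2, Krt14, Trp63, Oxtr and Cidec) were chosen after their values were seen. Promoters are from RefSeq on GRCm38.p6.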

Additional observations from a re-analysis of the deposited data

Results flagged for a closer look

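In control replicate 4, Igf1 reached 1.36 FPKM, where the other controls had 0.910 to 0.973, far from the other 3 by the gap to its nearest neighbour (0.859 of the range). The same library had the highest sum of fibroblast genes. This was 1 of 36 groups of 4 looked at, where chance gives about 1 in 20 such groups.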

How the results depend on the processing

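The means of Igfbp3 and Igfbp5 stayed lower in cKO under every alternative run, and their adjusted p lay on either side of 0.05, from 0.0210 to 0.191 for Igfbp3 and from 0.0220 to 0.135 for Igfbp5. Limma-voom on recovered reads gave Igfbp3 -0.88 (adjusted p = 0.0442) and Igfbp5 -0.74 (0.0239), and so 2 members and 2 further pathway genes with an adjusted p under 0.05. With library totals Igfbp5 was -0.79 (limma, adjusted p = 0.0431), with a mean FPKM of at least 1 -0.73 (0.0496) and with the replicate sets as a block -0.73 (0.0419), each giving 1 member, and library totals 1 further gene. Leaving out 1 library gave 0 to 1 members, with Igfbp5 from -0.85 to -0.60 (the 1 call without cKO replicate 1), and 6 to 10 further genes at an unadjusted p under 0.05 (6 without control replicate 4 or cKO replicate 2), with 6 also under TPM without milk genes. Igf1r turned to -0.0392 with TPM, -0.0248 with TPM without milk genes and -0.0370 with library totals. Leaving out 1 library, Igf1r ran from -0.0415 to 0.0506, Irs1 from -0.0669 to 0.119, Irs2 from -0.0996 to 0.0208 and Igfbp2 from -0.0647 to 0.318. The cause was not tested. Directions of the other members held under the alternatives run, but without control replicate 4 Igfbp6 was -0.24 and Igfbp4 -0.20, and Insr was 0.06 without control replicate 3 and 0.08 without cKO replicate 1, against -0.50, -0.34 and 0.12 with all libraries. Igf1 and Irs1 were not tested at a mean FPKM of at least 1.

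The replicate numbers were not taken to pair the samples, as no label pairs them, and the main fit held no block. Same-numbered libraries correlated at 0.0797 to 0.137. Libraries of the same set of replicates (1 and 2, or 3 and 4) with other numbers correlated at 0.0873 to 0.178 and those of different sets at -0.210 to -0.0720, and 1 of 4 control and 2 of 4 cKO libraries correlated best with their own number. No label names these sets, which were read from the values. With the replicate block limma gave adjusted p = 0.0824 for Igfbp3 and 0.0820 for Igfbp5, and 50 genes in all against 135. With the sets as a block limma gave adjusted p = 0.0744 for Igfbp3 and 0.0419 for Igfbp5, and 442 genes in all, so the call of Igfbp5 depends on this choice. Limma-voom with the replicate block gave Igfbp3 -0.88 (adjusted p = 0.0210) and Igfbp5 -0.74 (0.0220). It gave 2 members and 3 further genes at an adjusted and 4 members at an unadjusted p under 0.05. Of all 15143 genes, 680 had such an adjusted and 3389 such an unadjusted p. Limma-voom without the block gave 2567 at the unadjusted p, and limma gave 3124 with and 2480 without the block.

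Over all genes, the count with an adjusted p under 0.05 was 10 without a filter, 442 with the replicate sets as a block, 252 and 680 with limma-voom without and with the replicate block, and 0 to 78 when 1 library was left out (0 without control replicate 4, with 2134 at an unadjusted p under 0.05). At that unadjusted p, TPM gave 788 genes higher and 1656 lower, against 1340 and 1140, with 924 and 1475 for TPM without milk genes, 863 and 1795 for library totals, and median shifts of at most 0.05 in size.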
